A study of Oryza sativa Japonica Group with 4 samples.

Results

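Aquaporins and potassium transporters were examined in the roots of rice (Oryza sativa, Japonica variety TNG67) after a short exposure to glutamate. The genes were selected by name alone from the RefSeq gene table of assembly ASM3414082v1, without using any measured value. An aquaporin carried a symbol or synonym of the form PIP, TIP, NIP or SIP plus number-hyphen-number, and a potassium transporter one of the form HAK, HKT or AKT plus a number. Of the 61 genes so named, 49 had a probe set that the array annotation assigned to 1 gene, among 17905 genes measured in all. These were 25 aquaporins (of 28 named) and 24 potassium transporters (of 33 named). PIP2-3, NIP1-2, NIP3-3, HAK6, HAK19, HAK24, HKT1, HKT3, HKT4, HKT6, HKT7 and HKT9 were named but are not analysed here, so that the HKT family was represented by HKT8 only and the AKT family by AKT1 only.

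All seedlings were germinated in the dark and then kept for 2 weeks in hydroponic solution from which ammonium nitrate was left out. At 17 days the +Glu seedlings were given 2.5 mM glutamate for 30 min, while the −N seedlings stayed without nitrogen. The plants of both groups were therefore starved of nitrogen beforehand. The study's methods state a move to fresh solution without nitrogen for the controls of the amino acid measurements. For the array controls those methods do not state it. RNA of whole roots, from 2 biological replicates per group, was measured on 4 Affymetrix rice arrays that carry probe sets for the whole genome. Each value is an intensity on a linear scale in arbitrary units, and the 2 values given for a group are those of replicate 1 and replicate 2, in that order. Intensities of different probe sets cannot be ranked against each other, so every comparison below is made within a gene. Fold changes are +Glu over −N and come from the means of log2 intensities, so they can differ from the ratio of the linear means given with an SD. In RNA from whole roots, fewer cells of a type and less RNA per cell cannot be told apart.

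Aquaporins are channel proteins that let water and some small uncharged solutes cross membranes. The plasma membrane proteins (PIP1 and PIP2) and the vacuolar membrane proteins (TIP) carry much of the water that moves through root cells, NIP proteins include the silicon channels for which rice is known, and SIP proteins reside in internal membranes. Potassium enters root cells through HAK carriers, which work at low external potassium by using the proton gradient, and through the AKT1 channel, an inward rectifier. HKT proteins carry sodium, some together with potassium. Uptake of potassium by roots is tied to nitrogen nutrition, since potassium accompanies nitrate on the way to the shoot and competes with ammonium at the root surface.

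The labelled tissue was checked with marker genes. Of the root markers, Lsi1 (the silicon influx channel, identical with NIP2-1) had an intensity of 7831 and 8863 in +Glu and 7085 and 9275 in −N. Lsi2, the silicon efflux carrier, had 563 and 679 in +Glu and 626 and 1303 in −N. The phosphate transporters PT2 and PT6 were dim, between 18.5 and 53.1 on all arrays. Probe sets of photosynthesis genes also carried signal: CAB2R, a light-harvesting protein, ranged from 8748 to 10778 over the 4 arrays. The summed intensity of the 3 green tissue markers measured, of 4 named, was 12234 and 10802 in +Glu and 9439 and 13247 in −N, and that of the 4 root markers, of 6 named, was 8442 and 9591 in +Glu and 7756 and 10655 in −N. Both sums were lowest in −N replicate 1 and highest in −N replicate 2. The root sum was mostly Lsi1, itself an aquaporin described below, and none of the other 3 root markers was lowest in −N replicate 1: Lsi2 and PT2 were lowest in +Glu replicate 1, and PT6 in +Glu replicate 2.

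No aquaporin changed past the thresholds used here, at least 2-fold with an unadjusted p under 0.05 from limma's moderated test, in roots given glutamate. The fold changes of all 25 genes, +Glu over −N, lay between 0.829 for PIP2-2 and 1.33 for PIP2-5, and the median log2 fold change was −0.0043, against 0.026 over all 17905 genes. The number of aquaporins past the thresholds was 0 in either direction, where the background over all genes was 1.7% higher in +Glu and 0.0447% lower. With an unadjusted p under 0.05 alone there were also 0 aquaporins, against 3.86% of all genes higher and 0.38% lower. Single −N arrays moved this count: without −N replicate 1, 4 aquaporins had such a p and were lower (background 3.76%), and without −N replicate 2, 3 were higher (background 8.67%). The median log2 difference was −0.30 in the first of these fits (all genes −0.13) and 0.37 in the second (all genes 0.20). After Benjamini-Hochberg adjustment over all probe sets 0% of genes passed, and the adjusted p was 1 for each of the 49 genes described here. In TIP4-1 alone each +Glu array exceeded each −N array, and the opposite order was found in 0 aquaporins, where the background was 14.9% above and 10.1% below. A p that misses the threshold with 2 arrays per group does not show that the groups were alike.

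**Figure D1:**
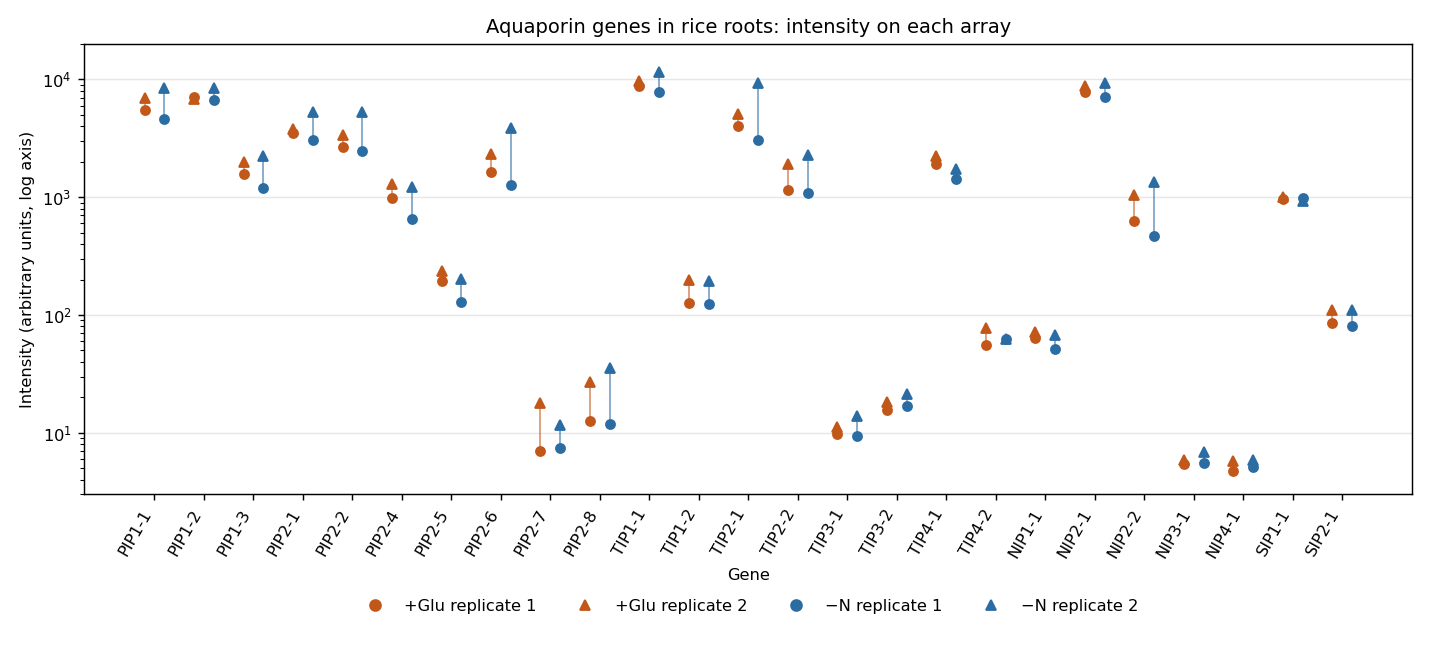
Intensity (arbitrary units, log axis) of 25 aquaporin genes on 4 arrays, with +Glu in orange to the left of −N in blue, circles for replicate 1 and triangles for replicate 2. In 24 of the 25 genes the −N triangle is above the −N circle, and in TIP4-1 alone each orange point is above each blue point.

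The 3 PIP1 genes gave overlapping groups. PIP1 proteins reach the plasma membrane together with PIP2 partners, with which they assemble. PIP1-1, also known as RWC1, had an intensity of 5456 and 7014 in +Glu and 4572 and 8419 in −N. PIP1-2 had 7148 and 6794 in +Glu and 6633 and 8386 in −N, and was the only aquaporin whose +Glu replicate 2 was lower than +Glu replicate 1. PIP1-3, the RWC3 gene, had 1569.7 and 1996 in +Glu and 1191 and 2238 in −N. In each of these genes the +Glu arrays lay between the −N arrays.

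The PIP2 genes, which encode the water channels with the higher activity of the plasma membrane group, held both the highest and the lowest fold change among the aquaporins. PIP2-5 had an intensity of 195 and 239 in +Glu and 129 and 204 in −N, a fold change of 1.33 (log2 0.41, standard error 0.30, unadjusted p = 0.223 from limma). PIP2-4 had 979 and 1288 in +Glu and 652 and 1231 in −N (1.25-fold, log2 0.33, standard error 0.36, unadjusted p = 0.408). In both genes +Glu replicate 1 lay between the −N arrays and +Glu replicate 2 above them. PIP2-4, PIP2-5 and PIP2-1 are neighbours in the gene table. PIP2-1 had 3508 and 3827 in +Glu and 3067 and 5306 in −N, a fold change of 0.908 (unadjusted p = 0.678). Its probe sets did not share a direction: a further probe set of the gene was at 282 and 235 in +Glu and 197 and 180.3 in −N, where the groups did not overlap (1.36-fold, unadjusted p = 0.0986), while the remaining one was at 0.938-fold.

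PIP2-2 had an intensity of 2688 and 3357 in +Glu and 2482 and 5294 in −N, a fold change of 0.829 (log2 −0.27, standard error 0.40, unadjusted p = 0.525 from limma). The +Glu arrays lay between the −N arrays, and a dimmer probe set of the gene was at 1.02-fold. PIP2-6 had 1647 and 2331 in +Glu and 1260.5 and 3840.2 in −N (0.890-fold, log2 −0.17, standard error 0.55, unadjusted p = 0.770). The −N arrays of PIP2-6 were 3.05-fold apart, so that the spread within −N was far wider than the difference between the groups. PIP2-7 and PIP2-8 were dim. PIP2-7 was at 6.98 and 18.0 in +Glu and 7.39 and 11.6 in −N (1.21-fold, log2 0.27, standard error 0.50, unadjusted p = 0.603), and PIP2-8 at 12.5 and 27.0 in +Glu and 11.9 and 35.5 in −N (0.891-fold, log2 −0.17, standard error 0.61, unadjusted p = 0.796). In both of them replicate 2 was above replicate 1 in each group.

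Among the 8 vacuolar membrane aquaporins, TIP4-1 was the gene whose groups did not overlap. Its intensity was 1930.2 and 2219 in +Glu and 1422 and 1746 in −N, or 2074 ± 204 in +Glu and 1584 ± 229 in −N (SD, n = 2 each). The fold change was 1.31 (log2 0.39, standard error 0.23, unadjusted p = 0.148, adjusted p = 1 from limma), and it was 1.36 within replicate 1 and 1.27 within replicate 2. Its other probe set was dim, at 7.46 to 9.26 over the 4 arrays, with a fold change of 1.02. TIP2-1, a vacuolar aquaporin expressed mainly in roots, had 4058 and 5097 in +Glu and 3043 and 9293 in −N (0.855-fold, log2 −0.23, standard error 0.53, unadjusted p = 0.689). Its +Glu arrays lay between −N arrays that were 3.05-fold apart, and the difference on the log2 scale was −1.03 if −N replicate 1 was left out, past the thresholds, and 0.58 if −N replicate 2 was. Its other probe set had the same order, at 1146 and 1369.5 in +Glu and 824 and 4033 in −N. TIP1-1 had 8872 and 9683 in +Glu and 7768 and 11575 in −N, and TIP2-2 had 1156 and 1929 in +Glu and 1081 and 2297 in −N. Both showed the order seen in TIP2-1, with a narrower spread.

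The other TIP genes had fold changes near 1. TIP1-2 was at 127 and 200.1 in +Glu and 123 and 194 in −N, a fold change of 1.03 within replicate 1 and within replicate 2. TIP4-2 had 55.9 and 77.2 in +Glu and 61.9 and 63.1 in −N. TIP3-1 and TIP3-2, which are known from the storage vacuoles of seeds, were dim, at 9.30 to 13.9 and at 15.7 to 21.4 over the 4 arrays, and their groups overlapped.

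The silicon channels did not separate the groups. NIP2-1 (Lsi1), whose values are given above, takes up silicic acid at the root surface and had a fold change of 1.03 (unadjusted p = 0.878 from limma). NIP2-2 (Lsi6), which unloads silicon from the xylem in leaves and is present in roots as well, had 623 and 1046 in +Glu and 468 and 1334 in −N. Its fold change was 1.02, with −N arrays 2.85-fold apart. NIP1-1 had 63.6 and 71.8 in +Glu and 51.1 and 67.8 in −N. NIP3-1, the boron channel listed as DTE1 in the gene table, and NIP4-1 were dim, at 5.40 to 6.92 and 4.74 to 5.88. The SIP genes, whose proteins are found in the endoplasmic reticulum, also had overlapping groups. SIP1-1 was at 970.3 and 1009 in +Glu and 985 and 934 in −N, and SIP2-1 at 85.3 and 109.8 in +Glu and 81.0 and 111 in −N, with fold changes of 1.03 and 1.02.

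For most aquaporins the arrays were ordered by replicate number rather than by treatment. Replicate 2 was above replicate 1 in 24 of 25 aquaporins in +Glu and in 24 of 25 in −N, where the background over all genes was 79.6% in +Glu and 76.4% in −N. The exceptions were PIP1-2 in +Glu and SIP1-1 in −N. The distance was larger in −N: the median of log2 replicate 2 minus replicate 1 was 0.32 in +Glu and 0.65 in −N for aquaporins, against 0.21 in +Glu and 0.31 in −N over all genes. At least 2-fold apart in this direction were 2 aquaporins in +Glu (background 1.39%) and 6 in −N (background 8.46%). Those in +Glu were the dim PIP2-7 and PIP2-8. Those in −N were PIP2-6, TIP2-1, PIP2-8 (2.98-fold), NIP2-2, PIP2-2 (2.13-fold) and TIP2-2 (2.13-fold). Counted in either direction the backgrounds were 1.56% in +Glu and 9.65% in −N, with the same 2 and 6 aquaporins. Array medians differed in the same direction, at 19.3 and 23.9 in +Glu over all probe sets and 20.1 and 23.9 in −N. With each array centred on its median, replicate 2 was above replicate 1 in 13 aquaporins in +Glu (background 34.6%) and in 22 in −N (background 55.6%), and the medians were 0.012 in +Glu and 0.40 in −N, against −0.10 in +Glu and 0.064 in −N over all genes. The green tissue genes rbcS (665 and 821 in +Glu, 309.7 and 1193 in −N) and rca (928 and 875 in +Glu, 381 and 1275 in −N) had −N arrays 3.85-fold and 3.35-fold apart, and their part in the order of the aquaporins was not tested.

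**Figure D2:**
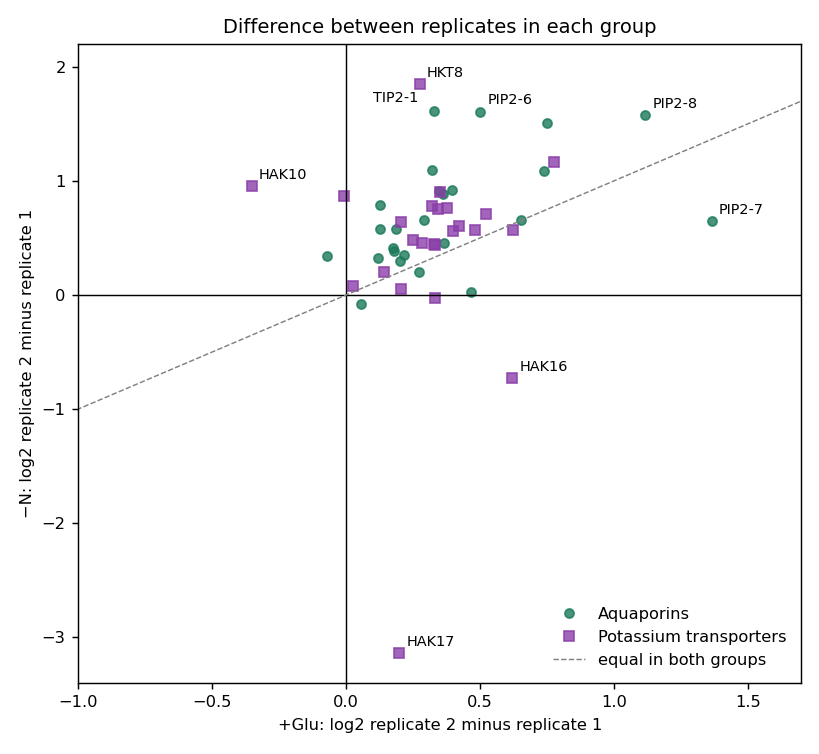
Each point is a gene, with log2 replicate 2 minus replicate 1 in +Glu on the x axis and in −N on the y axis (25 aquaporins as circles, 24 potassium transporters as squares; dashed line, equal difference in both groups). Most points lie at positive values on both axes and above the dashed line. HAK16 and HAK17 lie below 0 in −N, and SIP1-1 and HAK20 lie slightly below it.

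In most aquaporins −N replicate 1 was the lowest array, and in most −N replicate 2 was the highest. The share of all genes with either order was not computed, so neither can be called particular to aquaporins. The sign of the difference often depended on which replicates were set against each other. Within replicate 1, +Glu was above −N in 19 of 25 aquaporins (background 61.8%), with a median log2 difference of 0.12 (all genes 0.091). Within replicate 2, it was above in 8 of 25 (background 44.9%), with a median of −0.23 (all genes −0.025). In 14 aquaporins the glutamate array was the higher one in replicate 1 and the lower one in replicate 2 (background 30.3%). All 3 PIP1 genes were among these. The difference had the same sign in both replicates in 8 aquaporins. It was positive in 5 of 25, PIP2-4, PIP2-5, TIP1-2, TIP4-1 and NIP1-1, against 5493 of all 17905 genes. It was negative in 3 of 25, TIP3-2, NIP3-1 and NIP4-1, against 3929 of all 17905 genes.

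**Figure D3:**
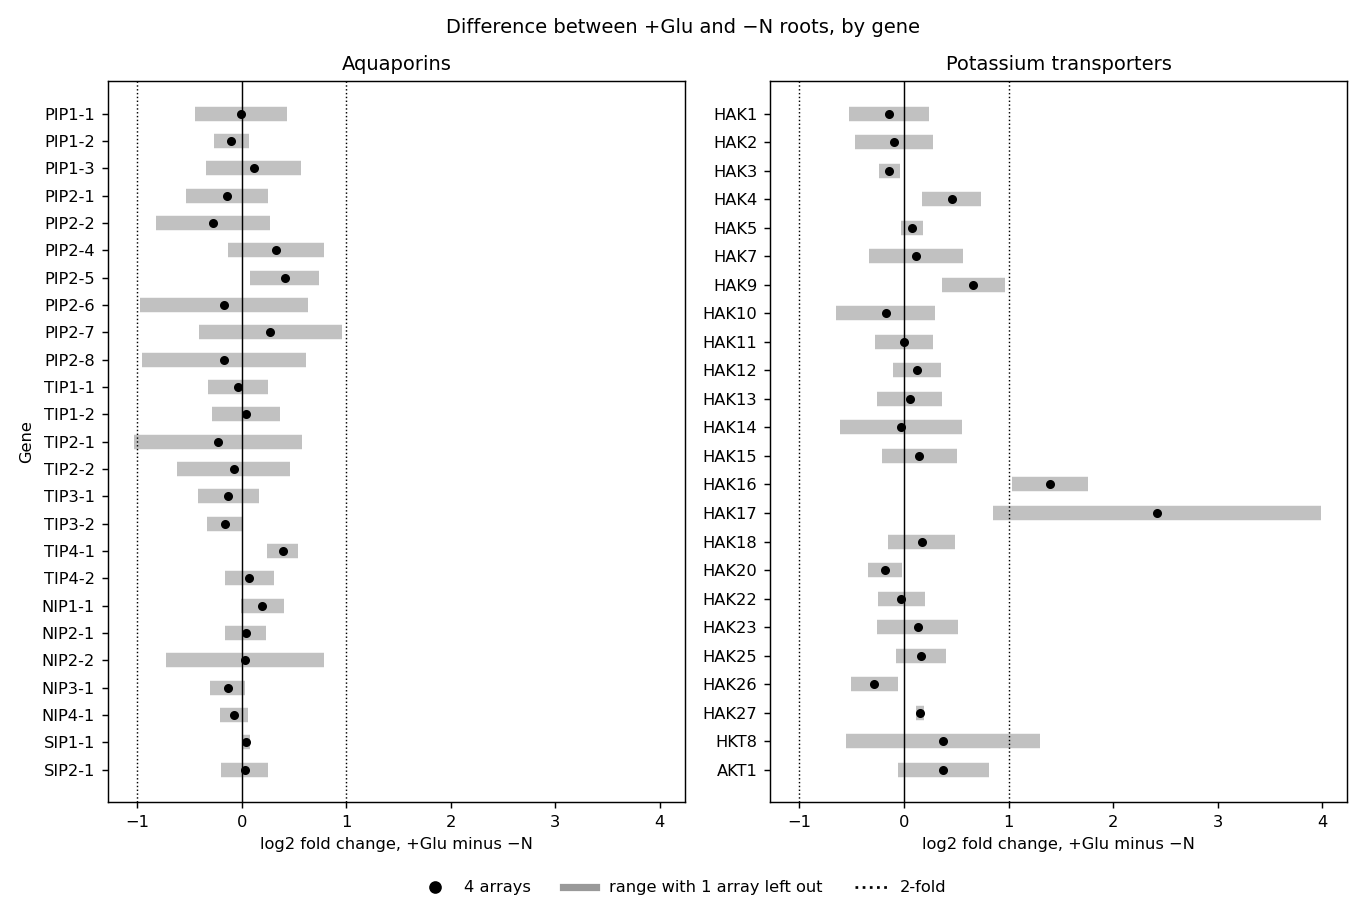
Log2 fold change, +Glu minus −N, of 25 aquaporins (left) and 24 potassium transporters (right), with black points for the 4 arrays, grey bars for the range of values with any 1 array left out, and dotted lines at 2-fold. The bar crosses 0 in 22 aquaporins and 16 potassium transporters, and HAK16 and HAK17 are the genes whose points lie past 2-fold.

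Among the potassium transporters, HAK16 and HAK17 were at least 2-fold higher in roots given glutamate with an unadjusted p under 0.05 from limma, and 0 were lower. This made 2 of 24 genes, where the background over all genes was 1.7% higher and 0.0447% lower. The fold changes of the other 22 lay between 0.822 for HAK26 and 1.58 for HAK9. Their log2 fold changes had a median of 0.12 over the 24 genes, against 0.026 over all genes, and 16 were positive and 8 negative. The direction of this median rested on single arrays: it was −0.19 without −N replicate 1 (all genes −0.13), −0.02 without +Glu replicate 2 (all genes −0.07), 0.28 without +Glu replicate 1 (all genes 0.14) and 0.38 without −N replicate 2 (all genes 0.20). The +Glu arrays both exceeded the −N pair in 4 genes, HAK9, HAK16, HAK17 and HAK27 (background 14.9%), and both lay below it in 1, HAK3 (background 10.1%). With adjustment over all probe sets 0 of 24 genes passed.

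**Figure D4:**
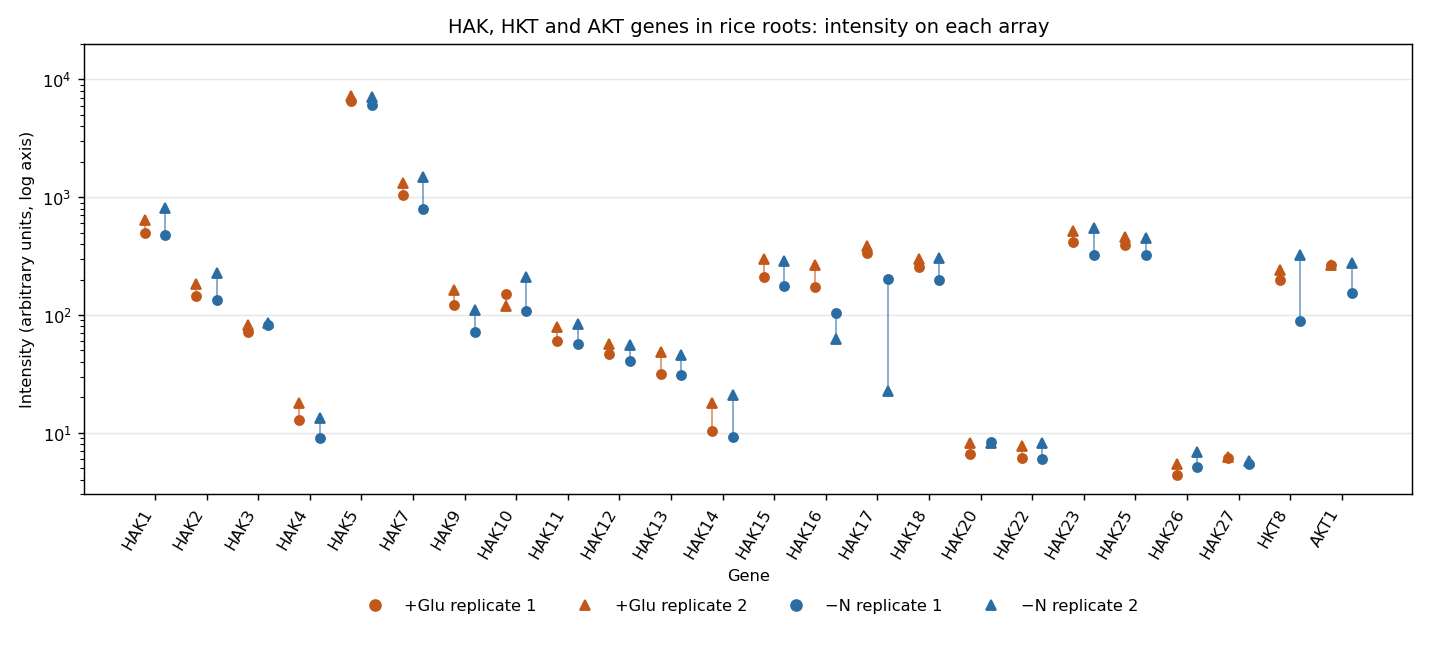
Intensity (arbitrary units, log axis) of 24 potassium transporter genes on 4 arrays, with +Glu in orange to the left of −N in blue, circles for replicate 1 and triangles for replicate 2. HAK17 has −N replicate 2 at 22.8 and the other arrays at 200.4 or above. In HAK16 and HAK17, and slightly in HAK20, the −N triangle is below the −N circle.

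HAK16, a carrier reported in rice to take part in potassium uptake and its transport to the shoot, is listed as LOC4333298 and was measured by a single probe set. Its intensity was 172 and 265 in +Glu and 105 and 63.0 in −N, which gave 218 ± 65.2 in +Glu and 83.8 ± 29.4 in −N (SD, n = 2 each). The groups did not overlap. The fold change was 2.63 (log2 1.39, standard error 0.35, unadjusted p = 0.00889, adjusted p = 1 from limma). It was 1.65 within replicate 1 and 4.20 within replicate 2. Fits on 3 arrays gave log2 fold changes that ranged from 1.03 to 1.76, and without +Glu replicate 2 the unadjusted p was 0.0509. HAK27 is the next gene beside HAK16 in the gene table. It was dim, at 6.12 and 6.22 in +Glu and 5.41 and 5.71 in −N, with a fold change of 1.11 (log2 0.15, standard error 0.21, unadjusted p = 0.506), and its groups did not overlap either.

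HAK17, listed as LOC4347211, had the largest fold change of the 49 genes, and this value rested on a single array. Its intensity was 338 and 388 in +Glu and 200.4 and 22.8 in −N, or 363 ± 35.1 in +Glu and 112 ± 126 in −N (SD, n = 2 each). The fold change was 5.36 (log2 2.42, standard error 0.96, unadjusted p = 0.0488, adjusted p = 1 from limma). The −N arrays were 8.80-fold apart, further than the groups. The fold change was 1.69 within replicate 1 and 17.0 within replicate 2. With quantile normalization the unadjusted p was 0.0743. Without −N replicate 2 the log2 fold change was 0.85 (unadjusted p = 0.0227), and without −N replicate 1 it was 3.99. A second probe set of HAK17 gave the same order of the arrays, at 249 and 284 in +Glu and 160.2 and 29.0 in −N, with a fold change of 3.90 (unadjusted p = 0.0464).

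**Figure D5:**
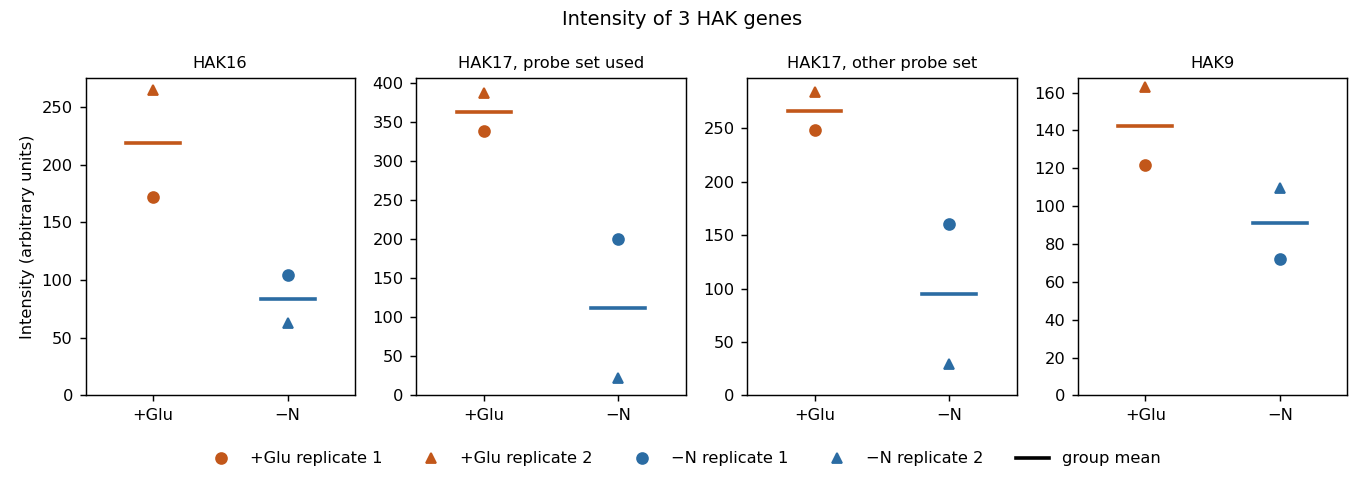
Intensity (arbitrary units, linear axes that start at 0) of HAK16, HAK17 (both probe sets) and HAK9 in +Glu (orange) and −N (blue), circles for replicate 1, triangles for replicate 2 and bars for the group mean. Each orange point is above each blue point in every panel, and −N replicate 2 of HAK17 is at 22.8 and 29.0 with the probe set used and the other probe set.

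HAK9, which has been linked in rice to seed germination under salt, had an intensity of 122 and 163 in +Glu and 72.2 and 109.7 in −N. The groups did not overlap, and the fold change was 1.58 (log2 0.66, standard error 0.30, unadjusted p = 0.0755 from limma), with 1.69 within replicate 1 and 1.48 within replicate 2. Centring the arrays on their medians gave an unadjusted p of 0.0212 at a log2 fold change of 0.69. HAK4 was dim, at 12.8 and 17.9 in +Glu and 9.07 and 13.4 in −N (1.37-fold, log2 0.46, standard error 0.31, unadjusted p = 0.189), and its groups overlapped. HAK3 was the gene whose +Glu arrays lay below the −N pair, at 71.2 and 82.0 in +Glu and 82.6 and 85.8 in −N (0.907-fold, log2 −0.14, standard error 0.22, unadjusted p = 0.545). Its other probe set was at 4.36 to 5.77 on the 4 arrays, with a fold change of 1.01.

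The high-affinity carriers HAK1 and HAK5, which in rice roots take up potassium when it is scarce, did not change past the thresholds. HAK5 had an intensity of 6597 and 7267 in +Glu and 6116 and 7041 in −N, a fold change of 1.06, and HAK1 had 498 and 646 in +Glu and 481 and 815 in −N (0.906-fold, log2 −0.14, standard error 0.33, unadjusted p = 0.679 from limma). The arrays of HAK5 were close together in both groups, and the +Glu arrays of HAK1 lay between its −N arrays. AKT1, the potassium channel of root cells, had 268 and 267 in +Glu and 153 and 278 in −N. Its +Glu arrays were nearly equal and lay between the −N arrays, and the fold change was 1.30 (log2 0.38, standard error 0.33, unadjusted p = 0.303). HKT8, also called SKC1, withdraws sodium from the xylem of rice roots. It was at 199 and 241 in +Glu and 89.1 and 321 in −N, with −N arrays 3.60-fold apart and a fold change of 1.30 (unadjusted p = 0.556). Within replicate 1 it was 2.24-fold higher in +Glu, where the background of at least 2-fold higher was 2.06%, and within replicate 2 its fold change was 0.751. The difference of HKT8 on the log2 scale was 1.30, past the thresholds, if −N replicate 2 was left out, and −0.55 if −N replicate 1 was.

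The genes with the lowest fold changes were HAK26, HAK10, HAK20 and HAK1. HAK10 had an intensity of 151 and 118 in +Glu and 108 and 209.5 in −N (0.886-fold, log2 −0.17, standard error 0.37, unadjusted p = 0.653 from limma), and a second probe set was at 1.01-fold. HAK26 was at 4.35 and 5.47 in +Glu and 5.09 and 6.91 in −N (0.822-fold, log2 −0.28, standard error 0.27, unadjusted p = 0.333). HAK20 was at 6.54 and 8.23 in +Glu and 8.41 and 8.23 in −N (0.882-fold, log2 −0.18, standard error 0.23, unadjusted p = 0.466). The groups overlapped in all 3 of these genes, and HAK20 and HAK26 were dim.

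The remaining carriers had overlapping groups. HAK7 had an intensity of 1036 and 1319 in +Glu and 788 and 1473 in −N, and HAK23 had 414 and 517 in +Glu and 322 and 552 in −N. HAK25 was at 389 and 463 in +Glu and 322 and 448 in −N. HAK18, a carrier of phloem tissue, was at 257 and 296 in +Glu and 196 and 306 in −N. The order in these genes was that of most aquaporins, with −N replicate 1 as the lowest array. HAK15 had 208 and 299 in +Glu and 176 and 289 in −N, and HAK2 had 145 and 184 in +Glu and 134 and 226 in −N. HAK11 had 59.9 and 79.0 in +Glu and 56.6 and 83.5 in −N. HAK12, which retrieves sodium from the xylem of rice roots, had 46.7 and 56.8 in +Glu and 40.3 and 55.3 in −N. HAK13 had 31.6 and 48.6 in +Glu and 30.9 and 45.9 in −N. In each of these too, −N replicate 1 was the lowest array. HAK14 (9.25 to 20.8) and HAK22 (5.95 to 8.14) were dim on all 4 arrays.

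The order by replicate number was present in the potassium transporters too. Replicate 2 was above replicate 1 in 22 of 24 genes in +Glu (background 79.6%) and in 21 of 24 in −N (background 76.4%), with a median log2 difference of 0.33 in +Glu and 0.57 in −N. The exceptions in −N were HAK16, HAK17 and HAK20. Those at least 2-fold apart in −N were HKT8 and HAK14 (2.24-fold) upward (background 8.46%) and HAK17 downward (background 1.19%). In +Glu there were 0 (background 1.56%). HAK16 and HAK17, like SIP1-1, differed from most of the 49 genes in that −N replicate 2 was the lowest array. Among all genes, −N replicate 2 was below −N replicate 1 in 23.6%. A low −N array is part of the fold changes of HAK16 and HAK17, so this order is no separate result. Within replicate 1, +Glu was above −N in 21 of 24 potassium transporters (background 61.8%), and within replicate 2 in 10 of 24 (background 44.9%). It was at least 2-fold above −N in 1 gene within replicate 1, HKT8, and in 2 genes within replicate 2, HAK16 and HAK17 (background 2.73%).

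Other genes of potassium transport and its control were matched by name. Of 4 vacuolar or outward potassium channel genes of the TPK and KCO group, of 6 named, 0 had an unadjusted p under 0.05 from limma in either direction (background 3.86% higher and 0.38% lower). TPK3, chosen here after its values were seen, had non-overlapping groups, with +Glu the higher, at 519.9 and 574 in +Glu and 417 and 389 in −N (1.36-fold, unadjusted p = 0.0905). Of 8 genes for the kinase CIPK23 and the calcium sensors of the CBL family, of 10 named, 0 had an unadjusted p under 0.05. A complex of CBL1 and CIPK23 activates AKT1, and CBL1 is not analysed here. CIPK23 was at 1233 and 1373 in +Glu and 1352 and 1476 in −N, with overlapping groups. The groups did not overlap and +Glu was the lower in 3 of the 8, CBL3, CBL4 and CBL9 (background 10.1%), with a median log2 fold change of −0.17 over all 8. CBL9 was the lowest, at 45.5 and 58.4 in +Glu and 61.1 and 104 in −N (0.648-fold, unadjusted p = 0.108), and these 3 genes too were named after their values were seen. Lsi2, the silicon partner of NIP2-1, had a fold change of 0.684 (unadjusted p = 0.211) with +Glu replicate 2 between its −N arrays.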

How the data were processed

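Root RNA of 4 arrays (2 +Glu, 2 −N) was analysed. The authors deposited a linear intensity for each probe set on each array. GCOS and RMA are named in the submitters' notes without version or order, and the background settings were not stated in those notes. The table holds no detection calls, and with arrays there is no read depth: their number limits the precision. The p-values take in only the spread between these samples, with limma drawing each probe set's spread towards that of all. Intensities were turned to log2 with no offset added. All 57258 probe sets, with 123 Affymetrix controls left out, were fitted together in R 4.3.3 with limma 3.58.1 as +Glu minus −N, two-sided, without the replicate number, and Benjamini-Hochberg adjustment ran over all of them. The array annotation assigned 22436 probe sets to 1 gene and 95 to several, and left 34727 without a gene. Where a gene had several probe sets, the brightest by mean log2 stood for it, and backgrounds are shares of the 17905 genes thus obtained. Those used for PIP2-1, PIP2-2, TIP2-1, TIP2-2, TIP3-1, TIP4-2, NIP2-2, HAK1, HAK3, HAK15, HAK22, HAK23 and AKT1 can bind several transcripts (_s_at, _x_at). A gene is called dim where that mean was under 5. The thresholds, 2-fold and an unadjusted p under 0.05, follow the study's methods.

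The genes and lists were chosen with earlier results of these data known. Full statistics are given for the 4 highest and 4 lowest fold changes of each family, for genes with an unadjusted p under 0.05 and for genes whose groups do not overlap. Of 6 names that resembled aquaporin names outside the rule, 5 belonged to genes whose other names are not those of aquaporins and 1, TIP5;1, is not analysed here, so these genes were left out. The planned markers RCc2 and RCc3 and the planned exchanger and proton pump genes were not matched by name, and a growth-regulating factor that shares the name PT2 was left out of the root markers. Gene coordinates are not given, since no genome build is named for the array values. Alternatives were a replicate block, leaving out each array, quantile normalization, median centring, a mean log2 of at least 5, an offset of 16, the mean of all probe sets of a gene, leaving out probe sets that can bind several transcripts (_s_at, _x_at), 1 probe set per gene in the fit, and Student's t-test. The limma script was tested on simulated data. Figures were drawn with Python 3.11.15 and matplotlib 3.10.9.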

Additional observations from a re-analysis of the deposited data

How the results depend on the processing

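With 2 arrays per group, most fold changes here are smaller than the spread between replicates, and 1 array can turn their sign. Under a replicate block 0 of the 49 genes changed direction or side of the thresholds, the potassium transporters past 2-fold stayed 2 in number, and the log2 fold changes were those given above, 1.39 for HAK16 and 2.42 for HAK17 (unadjusted p = 0.00954 and 0.0257 from limma). At an unadjusted p under 0.05 alone, the block gave 1 aquaporin, TIP4-1 (unadjusted p = 0.0480 from limma, against 0.148 without it), where the background was 8.24% higher, and 4 potassium transporters in place of 2, adding HAK9 (unadjusted p = 0.00812 from limma) and HAK4 (unadjusted p = 0.0292 from limma). The shared replicate numbers are only numbers in the labels. Deviations from the group mean correlated between same-numbered arrays at r = 0.43 over 17905 genes, which are not independent replicates.

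Of the potassium transporters past the 2-fold thresholds, 1 was left, HAK16, under quantile normalization, with a mean log2 of at least 5, with an offset of 16 and with 1 probe set per gene in the fit, where the unadjusted p of HAK17 in limma was 0.0743, 0.0584, 0.0916 and 0.0525. Its log2 fold change in those fits was 2.35, 2.42, 2.05 and 2.42, so that HAK17 stayed past 2-fold and missed the p threshold. By Student's t-test 0 were left. Leaving out 1 array gave 0 to 2 of them: 0 without +Glu replicate 2, 1 without +Glu replicate 1, and 2 without either −N array, which without −N replicate 2 were HAK16 and HKT8. Without −N replicate 1 the log2 fold change was 1.76 for HAK16 and 3.99 for HAK17, in a fit that takes the spread of −N from +Glu. No share of all genes past the 2-fold thresholds is given for these alternatives, so the counts stand without a background. For an unadjusted p under 0.05 alone in limma, 4.28% of all genes were higher under quantile normalization, against 3.86% without it. That share was 4.4% with the filter on mean log2, 5.29% with the offset and 3.81% with 1 probe set per gene. By Student's t-test it was 2.77%. Of aquaporins lower past the thresholds, leaving out 1 array gave 0 to 1, the gene being TIP2-1 without −N replicate 1. The median log2 fold change of potassium transporters ranged from −0.19 (without −N replicate 1) to 0.38 (without −N replicate 2), and that of aquaporins from −0.30 to 0.37 under the same omissions. HAK9 ranged from 0.36 to 0.96.

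The counts of non-overlapping groups depended on scaling, in alternatives chosen after seeing the data. Under quantile normalization and under median centring 3 aquaporins were above (PIP2-5, TIP4-1, NIP1-1), and 1 (TIP3-2) and 2 (TIP3-2, NIP4-1) were below. Potassium transporters numbered 6 above and 1 below under quantile normalization, 7 above and 2 below under centring, and 5 above and 0 below with the mean of all probe sets. HAK9, HAK16 and HAK17 were above in each. HAK27 overlapped under centring, and HAK3 overlapped under centring and with the mean of all probe sets. The 2 below under centring were HAK20 and HAK26. The backgrounds over all genes in these settings were 16.2% above and 15.3% below, 21.6% above and 8.18% below, and 14.8% above and 10.2% below. The median log2 replicate difference of aquaporins was 0.15 in +Glu and 0.39 in −N under quantile normalization (all genes 0.0044 in +Glu and 0.068 in −N), and its values under centring are given above. That of potassium transporters was 0.12 in +Glu and 0.34 in −N under quantile normalization. Under centring it was 0.021 in +Glu and 0.32 in −N. Centring left 13 aquaporins and 14 potassium transporters with +Glu replicate 2 above replicate 1 (background 34.6%). Potassium transporters with −N replicate 2 at least 2-fold above replicate 1 numbered 1 under quantile normalization, centring, the offset and the filter on mean log2. The backgrounds, in that order, were 3.94%, 3.84%, 4.6% and 8.43%.

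Signs near 0 turned as follows. Under quantile normalization the log2 fold change was 0.0059 for PIP1-1, 0.024 for TIP1-1, −0.046 for TIP1-2, −0.035 for NIP2-2, −0.020 for SIP1-1, −0.043 for SIP2-1, −0.042 for HAK11, 0.031 for HAK14 and 0.024 for HAK22. Under centring it was 0.026 for PIP1-1 and 0.0053 for HAK22, and with the offset −0.0010 for HAK11. It was 0.072 for PIP2-1 with the mean of all probe sets, and 0.030 for PIP2-2 and 0.012 for HAK3 when probe sets of the _s_at and _x_at kind were left out. The causes were not tested.

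With 1 array left out, the log2 fold change kept its sign in PIP2-5, TIP4-1, SIP1-1, HAK3, HAK4, HAK9, HAK16, HAK17, HAK20, HAK26 and HAK27. In the other genes it ranged as follows: PIP1-1 −0.44 to 0.44, PIP1-2 −0.27 to 0.071, PIP1-3 −0.34 to 0.57, PIP2-1 −0.53 to 0.26, PIP2-2 −0.82 to 0.28, PIP2-4 −0.13 to 0.78, PIP2-6 −0.97 to 0.64, PIP2-7 −0.41 to 0.96, PIP2-8 −0.95 to 0.62, TIP1-1 −0.32 to 0.25, TIP1-2 −0.28 to 0.37, TIP2-1 −1.03 to 0.58, TIP2-2 −0.62 to 0.47, TIP3-1 −0.42 to 0.16, TIP3-2 −0.33 to 0.016, TIP4-2 −0.16 to 0.31, NIP1-1 −0.0054 to 0.40, NIP2-1 −0.15 to 0.23, NIP2-2 −0.72 to 0.79, NIP3-1 −0.30 to 0.029, NIP4-1 −0.21 to 0.062, SIP2-1 −0.20 to 0.26, HAK1 −0.52 to 0.24, HAK2 −0.47 to 0.28, HAK5 −0.024 to 0.18, HAK7 −0.33 to 0.57, HAK10 −0.65 to 0.30, HAK11 −0.28 to 0.28, HAK12 −0.10 to 0.35, HAK13 −0.25 to 0.37, HAK14 −0.61 to 0.55, HAK15 −0.21 to 0.51, HAK18 −0.15 to 0.49, HAK22 −0.25 to 0.20, HAK23 −0.26 to 0.52, HAK25 −0.078 to 0.40, HKT8 −0.55 to 1.30 and AKT1 −0.055 to 0.81.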
